A study of Mus musculus with 6 samples.

Results

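The 10 genes described here encode enzymes that write, copy and remove cytosine methylation in mouse DNA, together with relatives and cofactors of these enzymes, namely Dnmt1, Dnmt3a, Dnmt3b, Dnmt3l, Tet1, Tet2, Tet3, Uhrf1, Uhrf2 and Tdg. They were taken by gene symbol from an expression table of 24288 genes, whatever their values. The table lists 33812 transcript entries, of which 33 belong to these 10 genes. Where a gene had several entries, the entry with the highest total over the libraries stood for it. RNA was compared between 3 wild-type (WT) libraries and 3 libraries of cells without functional Smad2 and Smad3 (double knockout, DKO), to ask how the methylation machinery stands when Nodal and activin signals cannot be passed on. All cells were epiblast-like cells (EpiLCs), a culture model of the early post-implantation epiblast. They came from XY mouse embryonic stem cells held in the naive state and then kept for 48 h (day 2) in activin A at 20 ng/ml, Fgf2 at 12 ng/ml and 1% knockout serum replacement on fibronectin. Both genotypes were of 129/Sv//Ev background. WT cells were of the CCE line. DKO cells were of 1 clone, KT15.1F6, obtained by deleting exon 1 of Smad3 with paired CRISPR nickases in cells homozygous for the Smad2 allele tm1Rob. With 1 line for each genotype, effects of the knockout and of the line cannot be told apart. The 3 libraries of a genotype came from separate differentiations of that line.

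DNA methylation is set by Dnmt3a and Dnmt3b, the de novo methyltransferases, which work with Dnmt3l, a relative without catalytic activity that stimulates them. After replication, Uhrf1 binds half-methylated DNA and brings in Dnmt1, which copies the pattern to the new strand. Tet enzymes oxidise methylcytosine, and Tdg cuts out the most oxidised forms so that base excision repair can restore an unmodified cytosine. The passage from naive pluripotency to the epiblast state is known for a genome-wide gain of methylation.

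Each library held 57644143 to 63046034 reads over 1 entry per gene, and the 10 genes together took 0.527% to 0.544% of them. Values are given as normalized reads, for which the count of an entry was divided by the size factor of its library. Replicates varied little, with a median coefficient of variation of 3.16% (WT) and 3.07% (DKO) over 11930 genes that averaged 100 normalized reads or more. Smad3 fell from 839 ± 37.0 normalized reads (SD, n = 3) to 23.6 ± 6.16 (n = 3). Smad2 stood at 4520 ± 86.3 in WT and 5062 ± 109 in DKO, so that its lesion was not visible in reads summed over the gene. Of 7 EpiLC markers, Pou5f1 and Otx2 had means of 21846 and 3596 normalized reads in WT and of 20761 and 4219 in DKO. Pou5f1 is also expressed in embryonic stem cells, so its level does not tell EpiLCs from the starting cells. Fgf5, the usual marker of this state, was present in both groups but fell from 3235 to 798. Of the 7 markers 5 were lower and 2 higher in DKO at a limma adjusted p under 0.05, Pou3f1 and Sox3 among the lower.

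Dnmt3l and Tet2 rose in DKO EpiLCs, each by about 1.6-fold, while the other 8 genes of the machinery stayed within 0.25 of WT on the log2 scale. Changed genes are those with a limma p under 0.05 after Benjamini-Hochberg adjustment together with a fold change over 1.5. By this rule 2 of 10 genes were called, against 15.4% of the 17038 genes tested, and both were higher, against 7.34% of genes called higher. By the adjusted p alone 8 of 10 passed, against 53.6% of genes. Of these, 5 were higher in DKO, against 27.1% of genes, and 3 were lower, against 26.5%. The shares of members called in either way therefore lie near or somewhat above the background. Of the 8 genes past the adjusted p, all but Dnmt3l and Tet2 differed by less than 1.5-fold. The median absolute log2 fold change was 0.10 over the 10 genes and 0.19 over all genes tested. RNA was taken from whole cultures, in which fewer cells of a kind and less RNA per cell cannot be told apart.

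**Figure D1:**
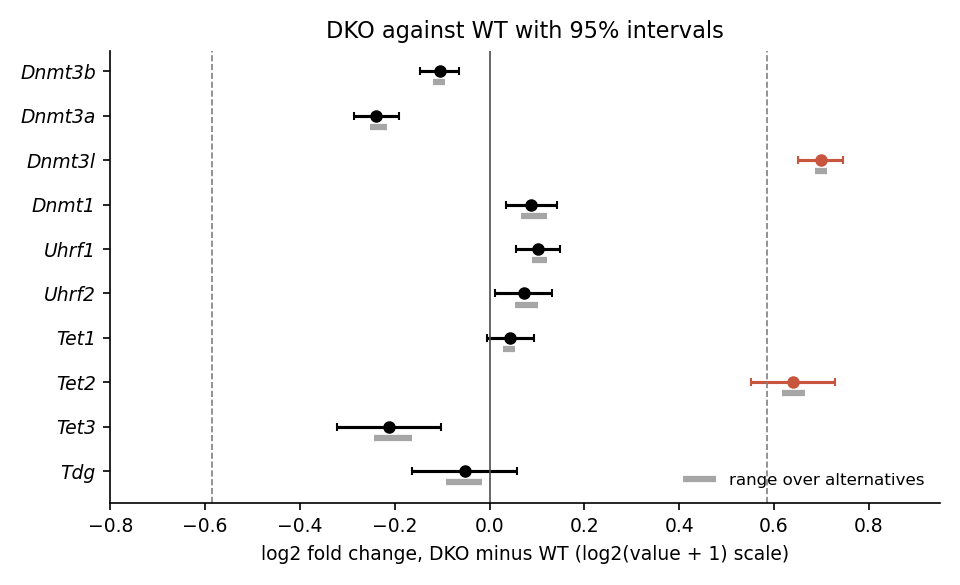
Log2 fold change, DKO minus WT, of each gene on the log2(value + 1) scale, with its 95% confidence interval from limma (n = 3 libraries per group) and, in grey, the range over alternative fits. Dashed lines mark a fold change of 1.5. Dnmt3l at 0.70 and Tet2 at 0.64, in red, lie past it, and the other 8 genes lie between -0.24 and 0.10.

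Among the genes of de novo methylation, Dnmt3l was the only one past the fold threshold. It had 14085, 14318 and 14591 normalized reads in the WT libraries and 23628, 23356 and 22796 in the DKO libraries. Every DKO value lay above every WT value by a wide margin, and the libraries of a group differed by a coefficient of variation under 2%. The log2 fold change was 0.70 ± 0.02 (SE), or 1.62-fold on the means (95% interval 1.57 to 1.68, limma adjusted p = 4.72e-20). Dnmt3l also passed a stricter test, in which the fold change itself is tested against 1.5 (limma adjusted p = 0.000467).

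Dnmt3a and Dnmt3b, the catalytic partners of Dnmt3l, were both slightly lower in DKO. Dnmt3a had 27733, 26539 and 26431 normalized reads in WT and 22976, 22793 and 22598 in DKO. The groups did not overlap, and the difference of -0.24 ± 0.02 on the log2 scale (limma adjusted p = 6.78e-10), a ratio of 0.847 between the means, was under the fold threshold. Dnmt3b had 68961, 70599 and 71609 normalized reads in WT and 65001, 65767 and 65495 in DKO. Again the groups did not overlap, with a still smaller difference of -0.11 ± 0.02 (limma adjusted p = 7.94e-05), a ratio of 0.929. The 95% intervals of the fold change were 0.820 to 0.875 for Dnmt3a and 0.903 to 0.957 for Dnmt3b, so that changes as large as 1.5-fold lay well outside both.

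Ratios taken within a library do not depend on its size factor. Dnmt3l reads per read of Dnmt3a and Dnmt3b combined were 0.146, 0.147 and 0.149 in WT and 0.269, 0.264 and 0.259 in DKO. The supply of Dnmt3l transcript relative to its partners was thus 1.79-fold higher in DKO, with no overlap. The ratio of Dnmt3a to Dnmt3b was 0.402, 0.376 and 0.369 in WT and 0.353, 0.347 and 0.345 in DKO, also without overlap. In both cases the two-sided exact permutation test gave p = 0.1, which is the smallest value that 3 libraries against 3 allow, and 0.175 after adjustment over the 7 ratios compared.

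Isoforms were separated only where their entries covered different stretches of the gene, since reads were counted over gene bodies. Dnmt3a lies on chromosome 12 (mm10, 3806980 to 3914443, plus strand), and its short isoform, the form known from embryonic stem cells, starts at an internal promoter. The 84.764 kb between the long and the short start held 1222, 1023 and 1243 reads in WT and 867, 958 and 1006 in DKO. This was only 2.36% ± 0.16 of all Dnmt3a reads in WT and 2.18% ± 0.14 in DKO (SD, n = 3), and the share overlapped between the groups (exact permutation p = 0.3, two-sided, adjusted p = 0.75 over 5 segments). Per kb, the body downstream of the short start was 155 times as densely covered as the upstream stretch in WT and 167 times in DKO, so that the Dnmt3a reads of both groups lay almost entirely in the span of the short isoform, which the long isoform also covers. For Dnmt3b (chromosome 2, 153649449 to 153687730, plus strand), whose splice forms with and without catalytic motifs are well known, the 9 entries had identical values in each library, although their exonic lengths run from 3630 to 4320 bases. The splice forms of Dnmt3b can therefore not be compared here.

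Dnmt3l lies on chromosome 10 (78042287 to 78063622, plus strand) with 3 distinct annotated starts. The 7.555 kb between the upstream and the middle start held only 35, 16 and 19 reads in WT and 34, 42 and 44 in DKO, about 0.09% of the reads of the gene in both groups. The stretch of 5.493 kb from the middle to the downstream start held 53.8%, 53.9% and 54.0% of the reads beyond the middle start in WT, and 54.1%, 54.3% and 54.0% in DKO. As a ratio of reads before to reads beyond the downstream start, this was 1.17 ± 0.0032 in WT and 1.18 ± 0.0078 in DKO (SD, n = 3), a difference of 0.02 on the log2 scale. The groups did not overlap, and the exact permutation test gave p = 0.1, the smallest it allows (two-sided, adjusted p = 0.5). The log2 fold change was 0.70 over the entry from the middle start and 0.69 over the entries from the downstream start, which the former contains.

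Sequences before a start site of each called gene are shown because they differ in the very dinucleotide these enzymes act on. They cover the 250 bases before the middle start of Dnmt3l (chr10:78049592-78049841, plus strand) and before the annotated start of Tet2 (chr3:133544391-133544640, minus strand), from RefSeq, build GRCm38.p6, with every CpG in capitals and all else in lower case.
Dnmt3l: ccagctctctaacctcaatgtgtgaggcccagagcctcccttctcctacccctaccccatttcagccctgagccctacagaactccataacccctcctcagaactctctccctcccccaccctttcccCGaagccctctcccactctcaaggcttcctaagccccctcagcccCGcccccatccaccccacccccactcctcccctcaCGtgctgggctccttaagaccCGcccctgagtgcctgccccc
Tet2: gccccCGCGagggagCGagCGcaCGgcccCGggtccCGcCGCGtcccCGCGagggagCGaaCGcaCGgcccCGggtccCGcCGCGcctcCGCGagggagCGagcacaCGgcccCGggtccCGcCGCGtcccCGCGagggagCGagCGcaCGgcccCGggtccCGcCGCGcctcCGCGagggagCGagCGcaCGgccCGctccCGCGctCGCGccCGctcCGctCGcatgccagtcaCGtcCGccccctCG
The Dnmt3l sequence held 4 CpGs and the Tet2 sequence 51. Over 32851 upstream windows of the same length the median was 6, and only 0.0670% held as many as Tet2. The letters CAGAC, known as the core Smad-binding element, were searched on both strands and were found in neither window shown. They occurred in 4 of 17 windows before annotated starts of the 10 genes, and in 42.2% of all windows. Those 4 lay before starts of Dnmt1, Tet1, Uhrf1 and Dnmt3l. For Dnmt3l it was the window before the downstream start (chr10:78055085-78055334). All 10 genes matched an entry of the sequence table.

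Genes next to Dnmt3l were looked at after the values had been seen. Aire, the transcriptional regulator of the thymus, overlaps the upstream end of Dnmt3l on the opposite strand. It had 284, 280 and 271 normalized reads in WT and 458, 452 and 487 in DKO, which made a difference of 0.74 ± 0.07 on the log2 scale (limma adjusted p = 1.38e-10). Icosl, which encodes a ligand of a T cell costimulatory receptor and starts 5.746 kb beyond the end of Dnmt3l, had 1145, 1195 and 1252 in WT and 2223, 2159 and 2245 in DKO (log2 fold change 0.88 ± 0.04, limma adjusted p = 2.32e-17). Both neighbours rose together with Dnmt3l, in all 3 DKO libraries. The upstream Dnmt3l segment that includes the whole overlap with Aire held 9.11 to 22.8 normalized reads in any library, a small part of the Aire value. Over the 20 nearest tested genes around Dnmt3l, 10 on each side, 2 were called higher, Aire and Icosl, and 2 lower, and the median log2 fold change was -0.02. For Tet2 the genes on both sides, Ppa2 and Cenpe, differed by 0.08 and 0.05, and of the 20 neighbours 2 were called higher and 0 lower, with a median of 0.02.

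The maintenance pair, Dnmt1 and Uhrf1, was slightly higher in DKO, and by the same proportion. Dnmt1 (chromosome 9, 20907206 to 20959888, minus strand) had 18866, 19173 and 20385 normalized reads in WT and 20210, 20751 and 21135 in DKO. The highest WT library lay above the lowest DKO library, and the log2 fold change was 0.09 ± 0.03 (limma adjusted p = 0.00540). Uhrf1 (chromosome 17, 56303337 to 56323486, plus strand) had 24357, 24626 and 25469 in WT and 26238, 26772 and 26884 in DKO, with no overlap and a difference of 0.10 ± 0.02 on the log2 scale (limma adjusted p = 0.000380). Both differences passed the adjusted p and fell far short of the fold threshold, with 95% intervals that ended at 1.10-fold and 1.11-fold. Dnmt1 reads per Uhrf1 read were 0.775, 0.779 and 0.800 in WT and 0.770, 0.775 and 0.786 in DKO, and did not differ beyond the spread between libraries (exact permutation p = 0.6, two-sided).

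Uhrf2, a relative of Uhrf1 that does not take its place in maintenance (chromosome 19, 30030513 to 30093726, plus strand), had 4572, 4599 and 4667 normalized reads in WT and 4655, 4974 and 4927 in DKO. One DKO library lay within the WT range. The log2 fold change was 0.07 ± 0.03 (limma adjusted p = 0.0373). Without WT replicate 1, WT replicate 2, DKO replicate 2 or DKO replicate 3 the adjusted p was 0.0902, 0.0911, 0.194 and 0.119. With all libraries kept it was 0.0524 with TMM factors, 0.0702 with scaling to library size and 0.0508 without the filter on low values, so this small difference did not hold under many of the alternatives. The ratio of Uhrf2 to Uhrf1 was 0.186 in WT and 0.182 in DKO on the means, with overlap (exact permutation p = 0.3, two-sided).

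No difference in start sites beyond the spread was seen for the maintenance genes. The oocyte form of Dnmt1 is known to start from an upstream promoter, and the 6.909 kb between the most upstream annotated start of Dnmt1 and the next held 0, 5 and 5 reads in WT and 2, 2 and 2 in DKO. Against 33691 to 40775 reads for the whole gene, transcription from that start was not detectable above a handful of reads. For Uhrf1, the 0.976 kb before the downstream start held 2.95% ± 0.07 of the reads in WT and 2.96% ± 0.08 in DKO (exact permutation p = 0.9, two-sided).

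Of the dioxygenases, Tet2 rose, Tet1 did not pass the test, and Tet3 was slightly lower. Tet2 (chromosome 3, 133463677 to 133544390, minus strand) had 821, 829 and 869 normalized reads in WT and 1287, 1354 and 1288 in DKO. All DKO libraries lay above all WT libraries. The log2 fold change was 0.64 ± 0.04, or 1.56-fold on the means (95% interval 1.47 to 1.66, limma adjusted p = 3.98e-13). The interval includes 1.5, and in the test against a fold change of 1.5 itself Tet2 was not called (limma adjusted p = 0.947).

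Tet1, the main Tet enzyme of pluripotent cells (chromosome 10, 62804570 to 62887324, minus strand), had 11287, 10930 and 11250 normalized reads in WT and 11723, 11358 and 11418 in DKO. The values did not overlap, yet they were so close that the difference of 0.04 ± 0.02 did not pass (limma adjusted p = 0.129), and the 95% interval ran from 0.996-fold to 1.07-fold. Tet3, known for its role in the zygote (chromosome 6, 83362373 to 83441678, minus strand), had 785, 703 and 720 in WT and 643, 605 and 657 in DKO. The DKO values were all below the WT values, by -0.21 ± 0.05 on the log2 scale (limma adjusted p = 0.00142), which is under the fold threshold.

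Within a library, the proportions among the Tet genes stood apart between the genotypes without overlap. Tet2 reads per Tet1 read were 0.0727, 0.0759 and 0.0772 in WT and 0.110, 0.119 and 0.113 in DKO, a 1.51-fold higher ratio. Tet3 per Tet1 was 0.0659 ± 0.0031 in WT and 0.0552 ± 0.0022 in DKO (SD, n = 3), also without overlap. Both exact permutation tests reached the smallest possible p = 0.1 (two-sided, 0.175 after adjustment over 7 ratios).

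Tdg, the glycosylase downstream of the Tet enzymes (chromosome 10, 82629838 to 82650799, plus strand), had 683, 654 and 614 normalized reads in WT and 615, 613 and 654 in DKO. The groups overlapped over most of their range (log2 fold change -0.05 ± 0.05, limma adjusted p = 0.426), and the 95% interval ran from 0.893-fold to 1.04-fold. Relative to the 3 Tet genes together, Tdg was 0.0511 in WT and 0.0467 in DKO, with overlap (exact permutation p = 0.2, two-sided).

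**Figure D2:**
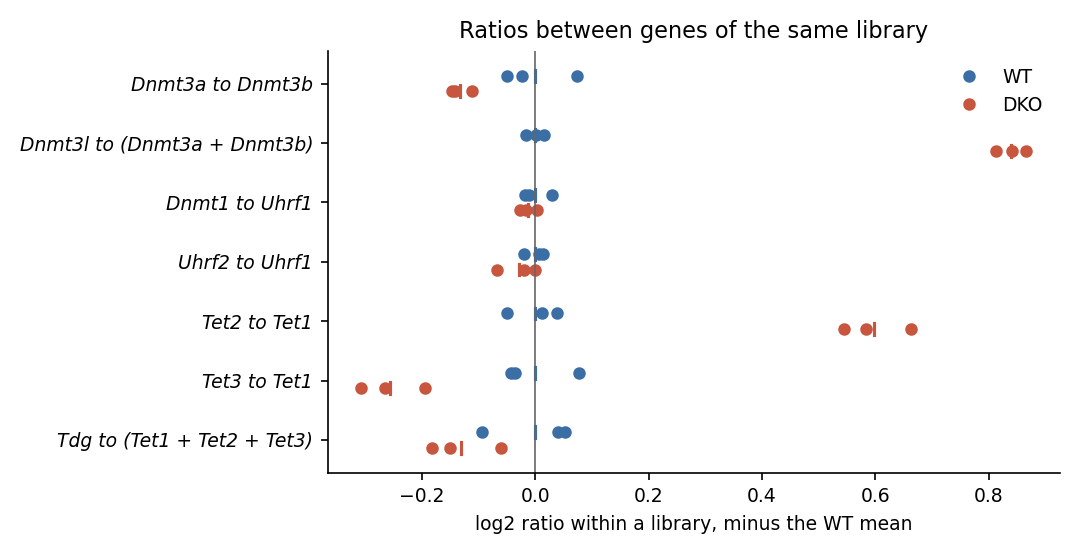
Log2 ratio of 2 genes, or of a gene to a sum of genes, within each library, minus the WT mean of that ratio. Points are libraries (n = 3 per group) and short bars are group means. The DKO points lie far to the right for Dnmt3l to its partners and for Tet2 to Tet1, to the left for Dnmt3a to Dnmt3b and Tet3 to Tet1, and overlap the WT points for Dnmt1 to Uhrf1.

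Levels were compared between genes per kb of gene body, because long genes collect more reads. In WT, Dnmt3b led with 1839 ± 34.9 normalized reads per kb (SD, n = 3), ahead of Uhrf1 with 1232 ± 28.8 and Dnmt3l with 672 ± 11.9. Dnmt1 at 370 ± 15.2, Dnmt3a at 250.3 ± 6.73 and Tet1 at 135 ± 2.37 formed the middle of the order. The place of Dnmt3a depends on the length used. Over the span from its short start, which held almost all its reads, Dnmt3a had 1157 reads per kb in WT, above Dnmt1. Uhrf2 at 73.0 ± 0.77, Tdg at 31.0 ± 1.64, Tet2 at 10.4 ± 0.32 and Tet3 at 9.28 ± 0.55 were lowest. The span from Dnmt3b to Tet3 was 198-fold. EpiLCs of either genotype were thus rich in transcripts of de novo and maintenance methylation and poor in Tet2 and Tet3.

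Per kb of gene body the order was the same in DKO, and no neighbours in it overlapped in either group. What changed on this scale was the spacing. Dnmt3l rose to 1090 ± 19.9 reads per kb, close under Uhrf1 at 1322 ± 17.1. From its middle start, beyond which almost all its reads lay, Dnmt3l had 1039 reads per kb in WT and 1686 in DKO. These values lay below Uhrf1 in WT and above Uhrf1 in DKO. Dnmt3b was 2.74 ± 0.01 times Dnmt3l per kb in WT and 1.57 ± 0.03 times in DKO, and 7.35 ± 0.33 times Dnmt3a in WT and 8.06 ± 0.10 times in DKO. These ratios rest on whole gene bodies, and 84.764 kb of that of Dnmt3a held few reads. Over the span from its short start, Dnmt3a had 1157 reads per kb in WT and 982 in DKO. Dnmt3b had 1839 and 1709. At the low end, Tet2 was 1.12 times Tet3 in WT and 2.03 times in DKO. Per kb of spliced transcript instead of gene body, Dnmt3l stood above Uhrf1 and Uhrf2 above Tet1 in both groups, so that 6 of 10 genes kept their rank. These 2 pairs cannot be ordered from gene-body reads, in which introns weigh in. Nor can the places of Dnmt3a and Dnmt3l, whose gene bodies include upstream stretches with few reads.

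**Figure D3:**
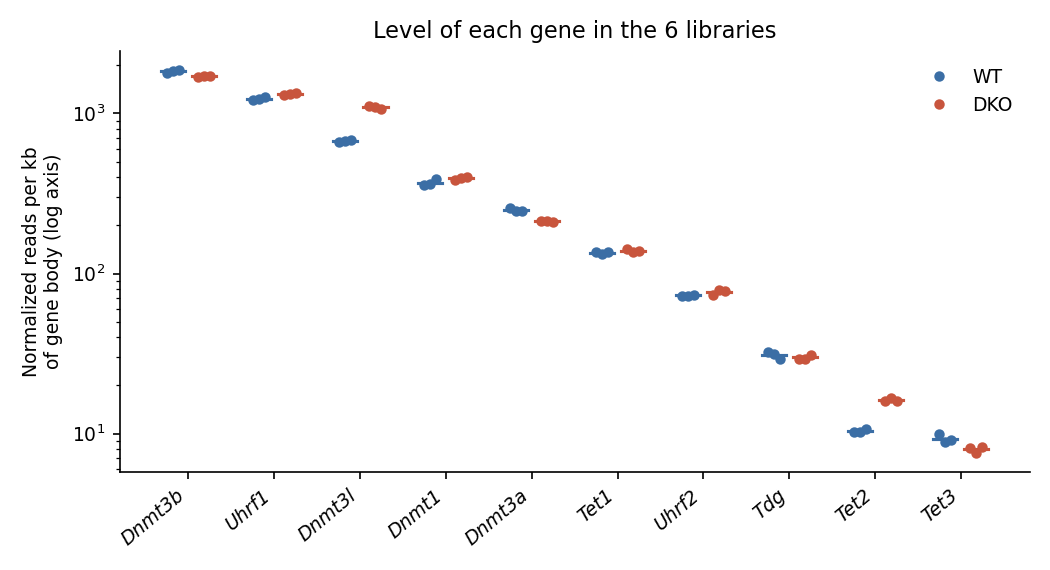
Normalized reads per kb of gene body on a log axis for the 10 genes, ordered by their WT level. Points are the 3 WT and 3 DKO libraries and bars are their means. The largest gaps between groups are those of Dnmt3l (672 to 1090 reads per kb) and Tet2 (10.4 to 16.2). Dnmt3a, Dnmt3b, Uhrf1 and Tet3 show smaller gaps, and the gap of Tet1 did not pass the limma adjusted p. On this scale the order is the same in both genotypes.

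Some neighbouring annotations could share reads with these genes, as the use of strand in counting was not given in the sources used here. Antisense genes overlap Dnmt3a and Dnmt3b, the gene Glt8d2 overlaps the end of Tdg, and pseudogenes of Dnmt3a, Dnmt3l and Tdg are annotated elsewhere in the genome. Their part in the values was not tested.

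The place of the 10 genes among all others is shown by the spread of fold changes at each level. Of the 174 other genes at least as abundant as Dnmt3l, 2 lay past a fold change of 1.5, Mat2a (lower, described with the methyl donor cycle) and Enah, an actin regulator (higher, log2 fold change 0.81). They are named after their values were seen.

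**Figure D4:**
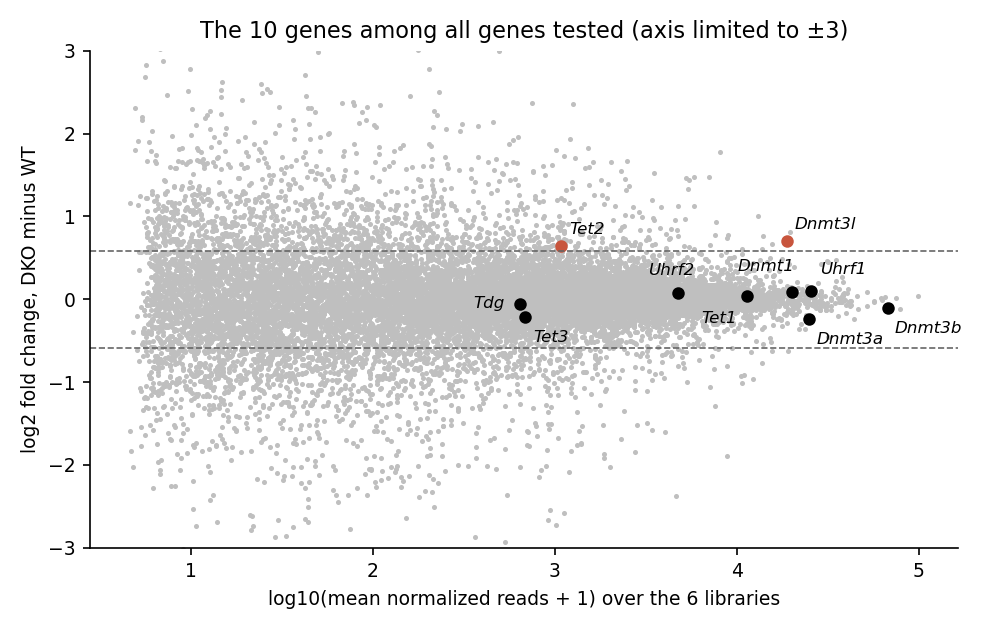
Log2 fold change, DKO minus WT, of the 17038 genes tested (grey) against log10 of the mean normalized reads plus 1 over the 6 libraries; 60 genes beyond 3 in either direction are not drawn. Dashed lines mark a fold change of 1.5. Dnmt3l and Tet2 (red) lie above the upper line and the other 8 genes (black) between the lines.

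The genes whose pattern over the 6 libraries was most like that of a called gene were found by the root mean square difference of log2 values centred on the WT mean, among 11920 genes. For Dnmt3l these were Tm7sf3 (a difference of 0.0139), Prep (0.0189) and Ddit4l (0.0245). For Tet2 they were Sohlh2, a germ cell transcription factor (0.0183), Gpx4, which detoxifies lipid peroxides (0.0183), and Sall4, a pluripotency factor (0.0203). Their log2 fold changes, from 0.64 to 0.70, were close to those of Dnmt3l and Tet2 by the way they were chosen.

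Partners of the methylation enzymes were mostly close to WT, with 1 large exception. Of 16 partners with an entry, 1 was called, against 15.4% of all genes tested, and the median log2 fold change was 0.03. This was Dppa3, a maternal factor known to keep Uhrf1 away from chromatin, which had 135, 137 and 155 normalized reads in WT and 631, 655 and 549 in DKO. All DKO values lay far above all WT values (log2 fold change 2.09 ± 0.08, limma adjusted p = 9.47e-19). The most abundant partners were Trim28, the corepressor of KRAB zinc finger proteins, at 0.09 ± 0.02, and Hells, a chromatin remodeller needed for methylation, at 0.02 ± 0.02 on the log2 scale, both short of the fold threshold. Zfp57, which protects methylation at imprinted regions, had a log2 fold change of 0.53 and came to 0.59, past the threshold, without WT replicate 3, which brought the partners called to 2. It is named because of that.

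Of 10 Tet partners and genes associated with demethylation, 3 were called, 1 higher and 2 lower, against 15.4% of all genes. The median log2 fold change was 0.20. Prdm14, a regulator of naive pluripotency and germ cells that represses de novo methyltransferases, had 15.6, 12.5 and 12.8 normalized reads in WT and 80.7, 56.7 and 79.3 in DKO, a rise of 2.31 ± 0.21 on the log2 scale (limma adjusted p = 1.83e-10). Cxxc4, which binds Tet2 and lowers its protein level, had 84.3, 85.9 and 71.5 in WT and between 14.7 and 24.9 in DKO and fell by 2.12 on the log2 scale (limma adjusted p = 6.50e-10). The groups did not overlap for either gene, and both are expressed at low levels. Apobec1, an RNA-editing cytidine deaminase, fell as well, from 386, 398 and 415 normalized reads in WT to 196, 176 and 187 in DKO (log2 fold change -1.10 ± 0.08, limma adjusted p = 6.03e-13).

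None of 11 base excision repair genes was called by limma, nor by edgeR, DESeq2 or any other alternative run, while 7 passed the adjusted p alone. Over all genes tested, 15.4% were called and 53.6% passed the adjusted p alone, and a departure of the list from these shares was not tested. The most abundant were Parp1, at 0.12 ± 0.02, and Apex1, at -0.01 ± 0.03 on the log2 scale. The same was true of 7 readers of methylated CpG, with 0 called under all alternatives and 4 past the adjusted p alone, against the same shares. Here Mbd3, a subunit of the NuRD complex, was at -0.16 ± 0.03 and Mbd1 at 0.31 ± 0.04.

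In the cycle that supplies methyl groups, 1 of 9 genes was called, against 15.4% of all genes, and it was lower. Mat2a, which makes the methyl donor S-adenosylmethionine, had 23321, 23292 and 22711 normalized reads in WT and 15132, 15127 and 14771 in DKO. The groups were far apart, and Mat2a fell by 0.62 on the log2 scale, with an SE of 0.02 (limma adjusted p = 3.89e-19). In the test against a fold change of 1.5 itself no gene of the cycle was called. Mthfd1, the next most abundant gene of the cycle, differed by 0.11 ± 0.02. Of the 9 genes 6 were lower at an adjusted p under 0.05, against 26.5% of all genes, with a list median of -0.14.

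**Figure D5:**
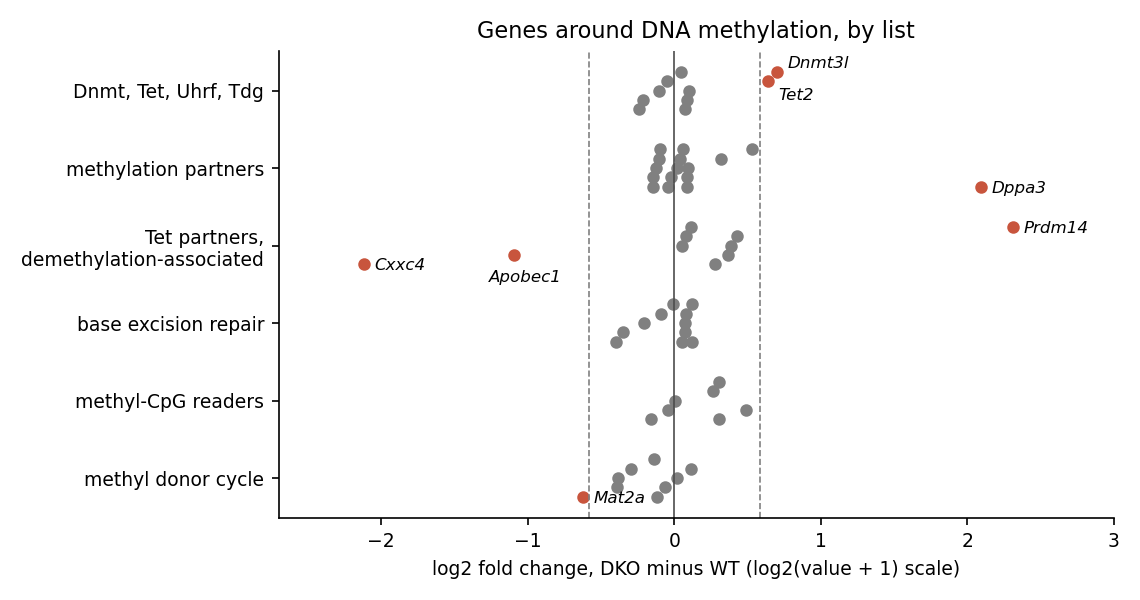
Log2 fold change, DKO minus WT, of every tested gene in 6 lists around DNA methylation. Each point is a gene, placed at a small vertical offset for legibility, and red points are called (limma adjusted p under 0.05 and fold change over 1.5). Called genes number 2, 1, 3, 0, 0 and 1 from top to bottom, and the grey points lie between the dashed 1.5-fold lines.

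Because Dnmt1 and Uhrf1 are made in S phase, 12 genes of DNA replication were examined beside them. None was called by limma or by any alternative, 9 passed the adjusted p alone, 5 higher and 4 lower, and the median log2 fold change was 0.04. Over all genes tested, 15.4% were called and 53.6% passed the adjusted p alone. Mcm5 and Mcm6, subunits of the replicative helicase and the most abundant of the list, were at 0.12 ± 0.02 each on the log2 scale. The lower 4 were Ccne1 at -0.31, Rrm2 at -0.27, Tyms at -0.19 and Ccne2 at -0.18, named after their values were seen.

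Markers of cell state moved alongside Dnmt3l and Tet2. The counts of markers called stand beside a share of 15.4% over all genes tested. Of 10 naive pluripotency markers 6 rose, namely Zfp42, Klf2, Klf4, Klf5, Tbx3 and Tfcp2l1. The sum over all 10 was 12624 to 13412 normalized reads in WT libraries and 15689 to 16720 in DKO libraries. Most of it was Fgf4, with means of 8267 in WT and 9388 in DKO, which was not called. Nanog, in the same list, was at -0.32 ± 0.05. Of 7 EpiLC markers 3 fell, namely Fgf5, Pou3f1 and Sox3, and 5 were lower by the adjusted p alone, against 26.5% of all genes. The list sum lay at 62377 to 63889 in WT and 65070 to 67290 in DKO, in which Lin28a, at 24759 in WT and 33381 in DKO, made the largest difference.

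Trophoblast markers, which stand for another lineage, had low sums in both groups, 233 to 246 normalized reads in WT libraries and 882 to 1090 in DKO libraries. All 9 tested genes rose (Cdx2, Gata2, Gata3, Tfap2c, Hand1, Krt7, Ascl2, Plac1 and Tfap2a), and 7 to 9 did so when single libraries were left out. Elf5, a defining factor of trophoblast stem cells, was too low to test, with means of 0.716 in WT and 1.04 in DKO. Of 7 tested extra-embryonic endoderm markers 1 rose, Gata6 (2 were called without WT replicate 2, WT replicate 3 or DKO replicate 2), with list sums of 277 to 313 in WT and 241 to 280 in DKO. Dab2, with means of 198 in WT and 154 in DKO, made up most of these sums. It was lower by the adjusted p but under the fold threshold (log2 fold change -0.37 ± 0.10, limma adjusted p = 0.00238). Of 6 tested fibroblast markers 2 fell, Col1a2 and Dcn, and the list sum was 1625 to 1699 in WT and 525 to 572 in DKO, with Postn at 0 in all WT libraries. Most of this sum was Dcn, with means of 1330 in WT and 300.4 in DKO, while Thy1, Pdgfrb and Col3a1 were at 0.11, 0.11 and 0.36 on the log2 scale and did not pass. In the test against a fold change of 1.5 itself, 4 naive, 2 EpiLC, 6 trophoblast, 0 endoderm and 2 fibroblast markers were called. The part of these shifts in the levels of the methylation genes was not tested.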

How the data were processed

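RNA was depleted of ribosomal RNA, and strand-specific libraries were sequenced in pairs over 75 cycles. Per the study's methods, ribosomal reads were taken out by the authors with Bowtie2, who then aligned to mm10 with STAR, removed duplicates with SAMtools and counted reads over refGene gene bodies; versions are not given in the sources used here. The deposited signal is the read count divided by 1 size factor per library (1.76 to 1.93). Division by the value of 1 read gave whole reads for 100% of values within 0.02. A deposited table of the authors' own DESeq2 comparison (fold changes and p-values) was not used.

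The main test was limma 3.58.1 (R 4.3.3) with a mean-variance trend on log2(value + 1), over entries that passed filterByExpr of edgeR 4.0.16, adjusted over all 25361 entries tested. Fold changes on this scale understate changes of genes with few reads. The 138 rows without a symbol (0.517% of reads) were left out. Alternatives used edgeR, DESeq2 1.42.0 and voom on recovered reads, other scalings, pseudocounts of 0.1 and 10, no filter, other fold thresholds, the replicate number as a block, another entry per gene and each library left out. The fits were tested on simulated reads. Positions and upstream sequences came from RefSeq GRCm38.p6, and spliced lengths from GENCODE. The variance between libraries of a genotype was 3.00 to 4.61 times that of sampling, so none was a copy of another.

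The genes and lists were chosen with earlier results of these data known. A list gene that is not reported here was left out of its list. Of each list the called genes are named, and where fewer than 2 were called also the 2 most abundant. The p-values measure spread between differentiations of 1 line per genotype, and reads carry no molecular identifiers, so they are not independent molecules.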

Additional observations from a re-analysis of the deposited data

How the results depend on the processing

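Dnmt3l stayed called under all alternatives, with log2 fold changes from 0.69 to 0.71. Tet2, from 0.62 to 0.67, lost its call only in the test against a fold change of 1.5 itself, which left 1 of the 10 genes and 1735 of the entries called, against 3904 entries otherwise, by construction a stricter test. At a lower fold threshold 6851 entries were called. Leaving out single libraries gave 3832 to 3895 entries, 2 genes called and 7 to 8 past the adjusted p. The order of levels kept 6 of 10 ranks per kb of spliced transcript. Dnmt3a and Dnmt3l also moved in the order over the spans from the starts that bound their reads.

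The log2 ratio of Dnmt1 to Uhrf1, near 0, ran from -0.0226 to 0.00108 (without WT replicate 3) when libraries were left out. The segment contrasts that changed sign without a library ran from -0.0602 to 0.0197 (ends of Dnmt1), from -0.10 to 0.44 (upstream Dnmt3l, 16 to 44 reads) and from -0.0173 to 0.0252 (Uhrf1). These sit within the spread and rest on few reads or tiny differences. Scaling moved the median of all genes by at most 0.0108 on the log2 scale, while Uhrf2 no longer passed the adjusted p with TMM factors or library size in limma.

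Libraries with the same replicate number did not deviate together (correlations of 0.00881, -0.03 and 0.04 over 11930 genes). These values cannot tell whether differentiations with the same number were run side by side. With the replicate number as a block, 3913 entries and 2 of the 10 genes were called and 8 passed the adjusted p, and no call among the 10 genes changed.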
